A study of Rattus norvegicus with 18 samples.

Results

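Transthyretin (Ttr, ENSRNOG00000016275) and insulin-like growth factor 2 (Igf2, ENSRNOG00000020369) were followed across 18 RNA sequencing libraries of rat dorsal hippocampus (dHC) and prelimbic cortex (PL). They are 2 of the 32662 gene rows in each count table and were taken by their Ensembl IDs, because both are strong in choroid plexus or meninges and Igf2 has been tied to memory in rat hippocampus. Adult Long-Evans rats of 3 conditions were used: naive rats that stayed in the home cage, rats killed 1 h after training in inhibitory avoidance (a task in which an animal learns to keep away from a place where it was shocked), and rats killed 6 d after it. No genetic change or drug is named for any group. Tissue was punched from frozen brain, between bregma 3.7 and 2.2 mm for PL and between -2.3 and -4.52 mm for dHC, and 5 rats went into every pool. There were 3 pools, called independent in the labels, for each region in each condition. The labels do not say whether pools with the same number in dHC and PL came from the same rats. Differences between the rats inside a pool are not seen.

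Ttr encodes a secreted protein that carries thyroxine and, through retinol-binding protein, vitamin A. In the brain it is made chiefly by the epithelium of the choroid plexus, which lies in the ventricles beside the hippocampus and releases it into the cerebrospinal fluid. Igf2 is an imprinted growth factor gene whose product signals through the IGF1 and insulin receptors and is cleared by the IGF2 receptor. In the adult brain its transcript is known from meninges, choroid plexus and blood vessels as well as from hippocampal tissue, where Igf2 has been studied in memory consolidation after inhibitory avoidance. In tissue pools, fewer cells of a type and less RNA per cell cannot be told apart.

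Both genes were found by symbol in a RefSeq promoter table (build GRCr8), whose coordinates are not those of the Rnor_6.0 assembly named for the counts. The counts of a gene add up its transcripts from every start site. Igf2 has 2 start sites in the table and Ttr has 1, and the 250 bases before each start are shown because a change in a gene's count cannot be assigned to one start or another. Capitals mark a GC box (GGGCGG), the binding motif of Sp factors, or a forkhead core (TGTTNAC), searched on both strands.
Ttr, chr18:12218508-12218757, plus strand: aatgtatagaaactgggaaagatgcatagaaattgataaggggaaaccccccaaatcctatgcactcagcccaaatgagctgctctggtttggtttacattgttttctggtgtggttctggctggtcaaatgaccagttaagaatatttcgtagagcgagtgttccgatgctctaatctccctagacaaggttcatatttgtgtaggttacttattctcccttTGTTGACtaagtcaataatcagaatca
Igf2 first start, chr1:207253981-207254230, minus strand: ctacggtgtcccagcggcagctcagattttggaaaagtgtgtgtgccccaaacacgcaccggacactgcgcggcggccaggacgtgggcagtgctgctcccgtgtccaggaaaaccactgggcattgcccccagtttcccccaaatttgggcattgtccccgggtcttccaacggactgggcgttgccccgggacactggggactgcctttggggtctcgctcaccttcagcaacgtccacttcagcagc
Igf2 second start, chr1:207250476-207250725, minus strand: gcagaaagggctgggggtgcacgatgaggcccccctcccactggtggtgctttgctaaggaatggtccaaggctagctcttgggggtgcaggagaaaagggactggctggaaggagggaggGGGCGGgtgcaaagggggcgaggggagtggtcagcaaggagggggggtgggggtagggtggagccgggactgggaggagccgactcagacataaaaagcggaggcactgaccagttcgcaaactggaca
The windows of Igf2 were richer in G and C, at 62.4% and 63.6%, than that of Ttr at 40.4%, where the median of 33469 windows was 51.2%. The first Igf2 window held 15 CpG dinucleotides, the second 7 and the Ttr window 3, against a median of 5. The Ttr window held a forkhead core at 27 to 21 bases before the start, as did 8.99% of all windows in some place. This motif, in which any base may stand at the fifth place, was chosen after the Ttr window had been read. The second Igf2 window held a GC box near its middle, a motif found in 30.5% of all windows. None of the 3 windows held the letters of a TATA box (TATAAA), which 12.9% of all windows did. Nor did they hold those of a CCAAT box, spelled as named and present in 34.0% of all windows. A cyclic AMP response element (TGACGTCA), present in 1.59% of all windows, was not among their letters either. In RefSeq no other gene overlapped Ttr, while Igf2 overlapped Mir483 and LOC102548568. The strand setting of the counting is not given in the sources used here, so reads of an overlapping gene could not be told apart from those of Igf2.

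Gene counts per library ran from 7463875 to 9215695, and levels are given as CPM, a gene's counts divided by all gene counts of its library and scaled to a total of 1000000. A count of 3, taken as the limit of detection, stood for 0.326 to 0.402 CPM. CPM takes no account of transcript length, so the level of Ttr is not compared with that of Igf2. The intervals of single pools given here are exact Poisson intervals at 95% and cover counting error only. The labels name no batch or handling day. Where all pools of a group are said to lie above or below those of another, the share of all genes that do so was not worked out. Such an order is a description, as 3 pools against 3 allow no exact permutation p under 0.1.

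In dHC, Ttr was a moderately abundant transcript with very unequal levels in pools of the same kind. The naive pools 1, 2 and 3 had 40.9, 342.0 and 26.1 CPM, from 363, 2629 and 231 counts. The pools at 1 h had 0.112, 12.6 and 53.3 CPM, from 1, 113 and 487 counts. The pools at 6 d had 97.0, 259.4 and 69.1 CPM, from 768, 2284 and 561 counts. Pool 2 was therefore highest among the naive and among the 6 d pools, and a pool at 1 h was nearly free of Ttr reads. Every pool at 6 d was above every pool at 1 h, whereas the naive pools overlapped both trained groups.

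The differences between dHC pools of one condition were far beyond counting error. Naive pool 2 was 13.1 times naive pool 3, with 95% Poisson intervals of 329.0 to 355.3 CPM and 22.9 to 29.7 CPM. At 1 h, pool 3 exceeded pool 1 by a ratio of 475.2, with an exact 95% counting interval of 84.9 to 18807.5 because pool 1 held a single count. At 6 d the highest pool was 3.75 times the lowest. The standard deviation between pools was 131% of the mean in naive dHC, 126.3% at 1 h and 72.5% at 6 d.

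In PL, Ttr was at or near the limit of detection in every pool but one. The naive pools had 1, 324 and 1 counts, which is 0.109, 35.6 and 0.123 CPM. The pools at 1 h had 4, 1 and 1 counts, or 0.450, 0.118 and 0.114 CPM. The pools at 6 d had 0, 6 and 2 counts, or 0, 0.804 and 0.229 CPM. With 3 counts taken as the most that a count of 0 allows, the 6 d pool without a Ttr read could hold up to 0.330 CPM. Naive PL pool 2 stood at a level within the range of the dHC pools, above the lowest naive dHC pool.

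**Figure D1:**
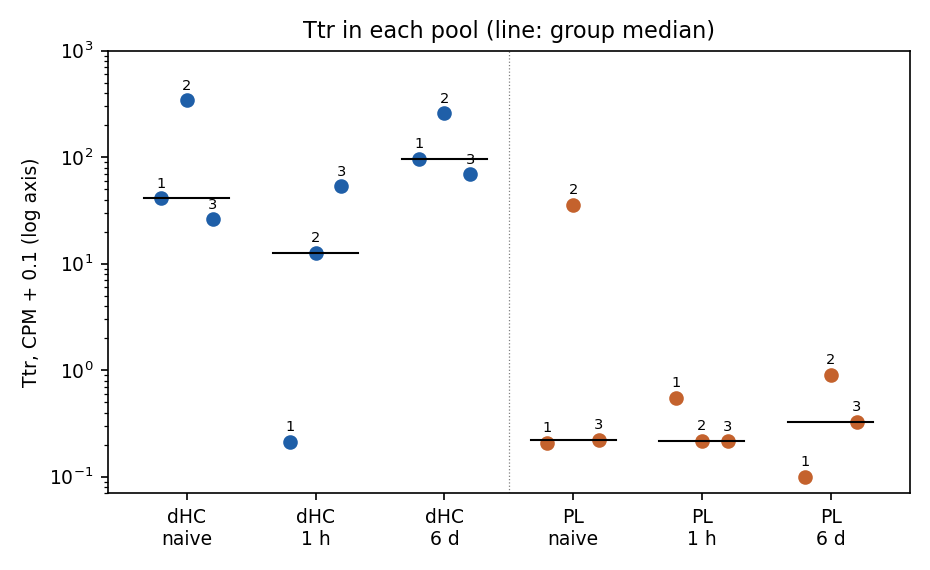
Ttr in each of the 18 pools, as CPM + 0.1 on a log axis, by region and condition; digits give the pool number and lines the group median. The dHC pools span 0.112 to 342.0 CPM, and in PL only naive pool 2, at 35.6 CPM, lies above 1 CPM.

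Both single pools that stood apart were extreme among all genes. Among 14303 genes with a mean of at least 1 CPM, no other gene in naive PL pool 2 lay so far above the 8 other PL pools: the gap for Ttr was 4.34 on the log2(CPM + 1) scale, and the largest gap of any other gene in that pool was 0.67. In dHC 1 h pool 1, Ttr lay 3.62 below the lowest of the 8 other dHC pools, again the largest gap of any gene, where the next was 0.73. By their median, abundant genes rich in dHC did not share the rise of naive PL pool 2. These were 39 genes other than Ttr, with at least 10 CPM in trained dHC and an 8-fold or larger excess over trained PL, and the set was defined after the values of Ttr were seen. Their median log2 ratio of naive PL pool 2 to the mean of the 2 other naive PL pools was 0.01, in a range of -0.50 to 0.83, beside 5.04 for Ttr and -0.01 over all 14303 genes. Genes under 10 CPM in trained dHC were outside the set. Where the Ttr reads of naive PL pool 2 came from was not tested.

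Ttr had the widest spread between pools of all genes compared. Its within-group standard deviation of log2(CPM + 1) was 1.90 over the 6 groups, where the median gene had 0.13 and the next highest gene 0.81. In dHC alone it was 2.07 and in PL alone 1.70, and in each region no gene had a higher value. The PL value came from naive pool 2: without it, an alternative chosen after seeing the data, it was 0.31, and 819 genes had a higher one. In dHC it was 1.52 without 1 h pool 1, still with no gene above it. For Igf2 the same quantity was 0.34, with 272 of the 14303 genes above it. The values place Igf2 above 98.1% of genes, and in dHC and PL apart above 95.7% and 97.8%. edgeR's estimate of the coefficient of variation between pools in dHC was 0.78 for Ttr and 0.14 for Igf2, where genes of like abundance were fitted at 0.06 and 0.07.

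**Figure D2:**
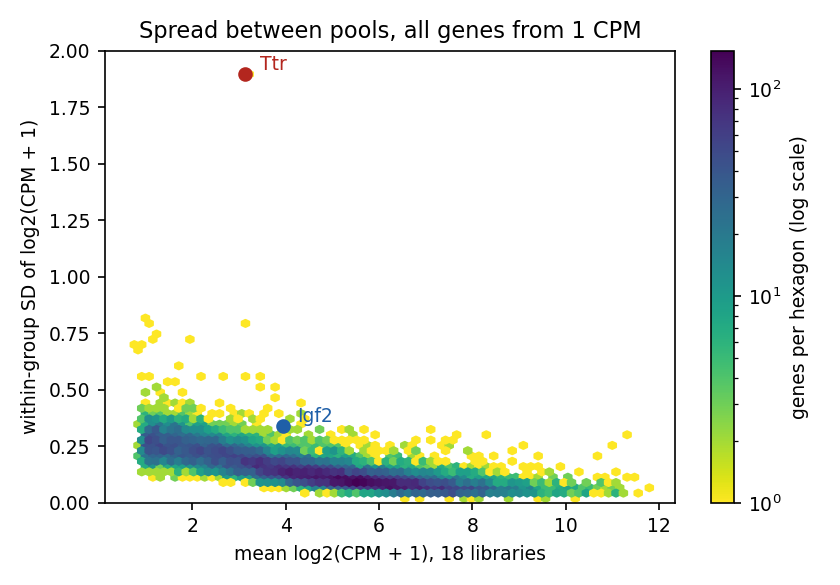
Spread between pools against abundance for 14303 genes: the x axis is the mean log2(CPM + 1) over 18 libraries, the y axis the standard deviation within groups on the same scale, and the colour the number of genes per hexagon (log scale). Ttr at 1.90 lies far above all other genes, and Igf2 at 0.34 lies above 98.1% of all genes shown.

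Igf2 was counted in every pool of both regions and was higher in dHC. The naive dHC pools 1, 2 and 3 had 23.9, 40.6 and 23.8 CPM, from 212, 312 and 210 counts. The dHC pools at 1 h had 21.3, 16.9 and 19.5 CPM, from 190, 151 and 178 counts. The dHC pools at 6 d had 26.3, 37.9 and 24.6 CPM, from 208, 334 and 200 counts. Pool 2 was again the highest of the naive and of the 6 d pools, as it was for Ttr, and all 3 pools at 1 h lay below all naive and all 6 d pools.

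In PL, Igf2 rested on fewer reads. The naive PL pools had 4.99, 6.71 and 8.47 CPM, from 46, 61 and 69 counts. The PL pools at 1 h had 9.001, 16.6 and 10.7 CPM, from 315 counts in all. The PL pools at 6 d had 4.84, 7.23 and 7.56 CPM, from 44, 54 and 66 counts. All pools at 1 h lay above all naive and all 6 d pools, which overlapped each other. The gap was narrow, since the lowest 1 h pool had a 95% Poisson interval of 7.14 to 11.2 CPM and the highest naive pool one of 6.59 to 10.7 CPM.

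**Figure D3:**
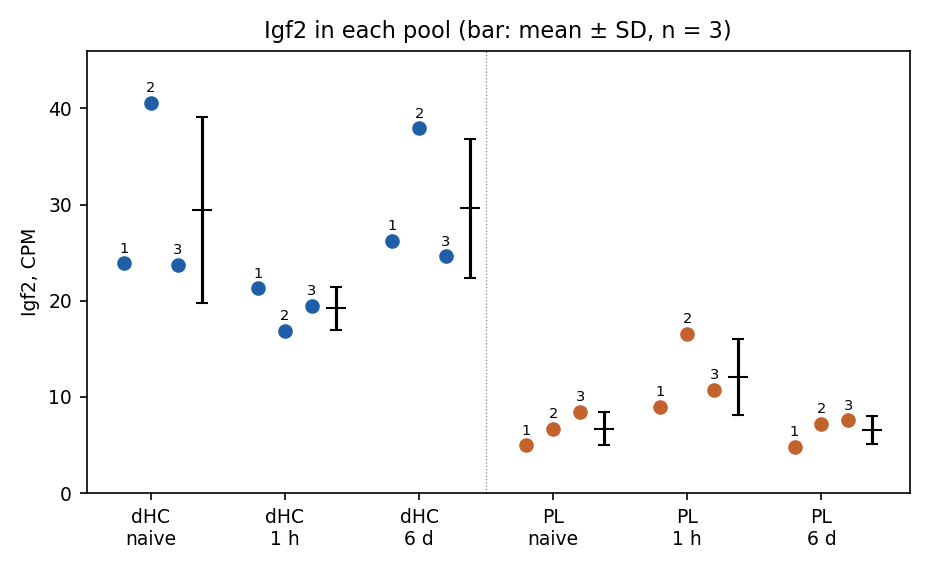
Igf2 in each of the 18 pools in CPM, by region and condition; digits give the pool number, and bars the mean ± SD of 3 pools. In PL the 1 h pools lie above the naive and 6 d pools, and in dHC they lie below them.

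The first question was whether the genes changed 1 h after training. In PL, Igf2 rose from 6.72 ± 1.74 CPM in naive pools to 12.1 ± 3.96 CPM (SD, n = 3), a log2 fold change of 0.85 with a standard error of 0.21 and a 95% interval of 0.40 to 1.29 (edgeR adjusted p = 0.0476). By this test, with an adjusted p under 0.05 referred to as called, 1.44% of all genes tested in PL were called at 1 h. The call was narrow. It was lost with a robust fit, with limma voom, with library totals in place of TMM factors and with all 18 libraries in the fit (adjusted p between 0.0561 and 0.114). It was also lost without 1 h pool 2 (log2 fold change 0.56, adjusted p = 0.301), 1 h pool 3 (adjusted p = 0.0946), naive pool 1 (adjusted p = 0.285) or naive pool 2 (adjusted p = 0.139), in a range of 3.58e-05 to 0.301 over 18 alternatives.

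In dHC, Igf2 was at 29.4 ± 9.67 CPM in naive pools and 19.2 ± 2.22 CPM at 1 h (SD, n = 3). The log2 fold change was -0.60 with a standard error of 0.19 and a 95% interval of -0.99 to -0.20. It did not pass (edgeR adjusted p = 0.234, unadjusted p = 0.00492), in a comparison where 0.224% of genes were called. Without naive pool 2 the log2 fold change was -0.30 (edgeR adjusted p = 0.690, the highest of 18 alternatives that went down to 2.87e-05 with no filter on low counts). Ttr was at 136.3 ± 178.2 CPM in naive dHC and 22.0 ± 27.8 CPM at 1 h (SD, n = 3). Its log2 fold change of -2.59 had a standard error of 0.83 and a 95% interval of -4.33 to -0.86, and it did not pass either (edgeR adjusted p = 0.245). Without naive pool 2 it was -0.59 and without 1 h pool 3 it was -4.39 (edgeR adjusted p = 0.891 and 0.263). Leaving out any one dHC library gave adjusted p between 0.125 and 0.891. For Ttr a robust fit gave an edgeR adjusted p of 0.605, and the exact permutation p was 0.3. The Ttr interval is narrower than its own pools alone would give. edgeR used a quasi-dispersion (its measure of spread beyond counting error) of 79.8, beside 251.5 from those pools.

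The 1 h changes of Igf2 were of opposite sign in the 2 regions. The test of the difference itself gave -1.43 in log2 fold change, dHC minus PL, with a standard error of 0.33 and a 95% interval of -2.11 to -0.76. Its unadjusted p was 0.000169, and after adjustment over 14784 genes it did not pass (edgeR adjusted p = 0.109), where 0.0947% of genes were called. It passed with only the 4 groups of this contrast in the fit (adjusted p = 0.0266) and without dHC 6 d pool 2 (adjusted p = 0.0437), in a range of 2.15e-10 to 0.420 over 26 alternatives. Ttr is in this fit through its dHC counts, and its PL change rests on naive pool 2, so its value describes that pool. For Ttr the difference was 3.07 with a 95% interval of -4.39 to 10.5 (edgeR adjusted p = 0.875), and it turned to -3.50 without naive PL pool 2. The interval for Ttr holds both signs.

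Ttr did not pass the filter on low counts in PL, as only 1 PL pool held more than a few reads. It was therefore absent from the edgeR fit of the PL libraries, and the exact permutation test of its pools, two-sided on log2(CPM + 1), was used instead. Ttr at 1 h was at 0.227 CPM on average against 12.0 CPM in naive pools, and the difference of -1.55 did not pass (exact permutation p = 0.8, where 3 pools against 3 allow no value under 0.1). Without naive pool 2 the difference was 0.13. At 6 d the mean was 0.344 CPM, and the difference of -1.45 from naive (exact permutation p = 0.7) was 0.23 without that pool. In the fit of all 18 libraries, which Ttr entered through dHC, the log2 fold changes in PL were -5.66 at 1 h and -5.23 at 6 d against naive (edgeR adjusted p = 0.314 and 0.998). Between 6 d and 1 h that fit gave 0.43 (edgeR adjusted p = 0.987). These values are larger than those on the log2(CPM + 1) scale, which understates changes of low levels. They also follow the group means, and 324 of the 326 naive PL counts came from pool 2. The fitted sizes therefore describe that pool.

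The next question was what remained at 6 d. Igf2 was at 29.6 ± 7.25 CPM in dHC and at 6.55 ± 1.48 CPM in PL (SD, n = 3), close to the naive means. The log2 fold changes against naive were 0.04 in dHC, with a 95% interval of -0.34 to 0.41, and -0.05 in PL, with an interval of -0.55 to 0.44 (edgeR adjusted p = 0.987 and 0.999). Changes of the size seen for Igf2 in PL at 1 h lie outside both intervals. Ttr in dHC was at 141.8 ± 102.7 CPM at 6 d (SD, n = 3), a log2 fold change of 0.09 against naive (edgeR adjusted p = 0.993), and its 95% interval of -1.37 to 1.55 allows changes of more than 2-fold either way. Without naive pool 2 the value for Ttr was 2.10 and without 6 d pool 2 it was -0.70. In both regions edgeR called 0% of genes at 6 d against naive, with 804 genes in dHC and 497 in PL at an unadjusted p under 0.05. limma voom called 0 genes in either region, and DESeq2 called 1 in dHC and 0 in PL.

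The change at 6 d was also compared between regions. For Igf2 the difference, dHC minus PL, was 0.10 with a standard error of 0.35 and a 95% interval of -0.62 to 0.81 (edgeR adjusted p = 1.00). For Ttr, whose PL change again rests on naive pool 2, the fitted value was 5.32 with a standard error of 2.67 and a 95% interval of -0.17 to 10.8 (edgeR adjusted p = 1.00, unadjusted p = 0.0568), and -1.24 without naive PL pool 2. By this test 0% of genes were called (558 at an unadjusted p under 0.05), and DESeq2 and limma voom also called 0.

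Compared directly, the 6 d and 1 h pools did not overlap for Igf2 in either region, nor for Ttr in dHC. The exact permutation p was 0.1 in each case, the lowest that 3 pools against 3 allow. In PL, Igf2 was lower at 6 d by a log2 fold change of -0.90, with a standard error of 0.22 and a 95% interval of -1.35 to -0.45 (edgeR adjusted p = 0.0281), in a comparison that called 2.21% of genes. This call was lost without 1 h pool 2 (log2 fold change -0.61, adjusted p = 0.199) or 6 d pool 1 (adjusted p = 0.0822), with a robust fit (adjusted p = 0.0522) and with all 18 libraries in the fit (adjusted p = 0.0814). In dHC, Igf2 differed by 0.63 between 6 d and 1 h, with a standard error of 0.19 and a 95% interval of 0.24 to 1.02, which did not pass (edgeR adjusted p = 0.113). Ttr in dHC differed by 2.69, with a standard error of 0.83 and a 95% interval of 0.96 to 4.42 (edgeR adjusted p = 0.122), and 1.1% of genes were called in this comparison. Both dHC differences passed with only the 2 groups compared in the fit (adjusted p = 0.0498 for Igf2 and 0.0393 for Ttr). They also passed without naive pool 2, a library outside the comparison that enters the shared spread (adjusted p = 0.0327 for Igf2 and 0.0258 for Ttr), and Igf2 passed without 6 d pool 3 (adjusted p = 0.0456). Without 6 d pool 2 the difference was 0.40 for Igf2 and 1.90 for Ttr (edgeR adjusted p = 0.434 and 0.425). The adjusted p was 0.348 for Igf2 and 0.483 for Ttr with a robust fit, and 0.318 and 0.496 with DESeq2. The Ttr interval again rests on the quasi-dispersion of 79.8, below that of its own pools. The comparisons with naive and with 1 h share pools, so they do not test the same change separately. For Ttr in PL, 8 counts in all at 6 d and 6 at 1 h were too few for a fold change.

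**Figure D4:**
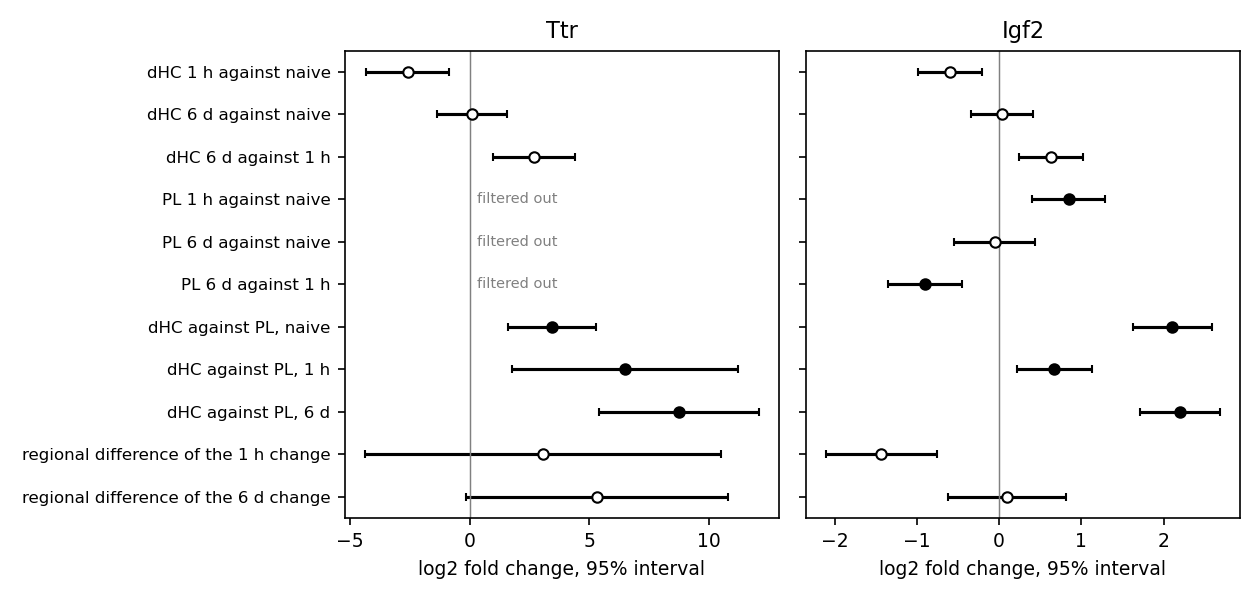
Log2 fold changes of Ttr and Igf2 with 95% intervals from the edgeR fits, for 6 comparisons within a region, 3 between regions and 2 differences of the change, dHC minus PL; the x scales of both panels differ, and filled points have an adjusted p under 0.05. The intervals of Ttr are several times as wide as those of Igf2, those of Ttr between regions rest on few PL counts, and Ttr was filtered out of the PL fit.

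The regions were then compared at each time, in pools that share no libraries between times. Igf2 was higher in dHC in naive rats by a log2 difference of 2.11, with a standard error of 0.23 and a 95% interval of 1.63 to 2.58 (edgeR adjusted p = 1.77e-08). At 6 d the difference was 2.20, with a 95% interval of 1.72 to 2.69 (edgeR adjusted p = 9.77e-09). At 1 h it was 0.67, with a 95% interval of 0.22 to 1.12 (edgeR adjusted p = 0.0132), below the naive and 6 d intervals. The dHC and PL pools of Igf2 did not overlap at any of the 3 times, and the gap was smallest at 1 h, between 16.9 CPM in dHC pool 2 and 16.6 CPM in PL pool 2. The 1 h call was lost with a robust fit (adjusted p = 0.0632) and without PL 1 h pool 1 or 3 or dHC 1 h pool 1 (adjusted p between 0.0556 and 0.0916). Regional differences were common in these tissues: 46.3% of genes were called in naive pools, 47.9% at 1 h and 45.8% at 6 d.

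For Ttr the regions are set side by side by their counts. The 3 dHC pools held 3223 counts in naive rats, 601 at 1 h and 3613 at 6 d, and the 3 PL pools 326, 6 and 8. Ttr stood in the fit of all 18 libraries through its dHC counts alone, so a difference was built into its being tested, and with so few PL counts the sizes at 1 h and 6 d were not measured. The fitted values are given as a description. The fitted log2 difference was 3.44 in naive rats, with a standard error of 0.90 and a 95% interval of 1.59 to 5.28 (edgeR adjusted p = 0.00243). At 1 h it was 6.51, with a 95% interval of 1.78 to 11.2 (edgeR adjusted p = 0.0212), and at 6 d 8.76, with a 95% interval of 5.42 to 12.1 (edgeR adjusted p = 5.99e-05). Only the 6 d pools of both regions did not overlap. The naive value was 10.0 without PL pool 2 and 1.44 without dHC pool 2, the latter above the threshold (edgeR adjusted p = 0.193). At 1 h the adjusted p was also above 0.05 without dHC pool 3 (adjusted p = 0.229) and without any one of the 1 h PL pools (adjusted p between 0.0581 and 0.0638). With limma voom the adjusted p of all 3 differences was above 0.05 (0.0646 in naive rats, 0.448 at 1 h and 0.0917 at 6 d). At 6 d each dHC pool held at least 561 counts, beside at most 6 in a PL pool.

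Whether pools high in one gene were high in the other was asked within each region, as part of 6 relations tested. Over the 9 dHC pools, log2(CPM + 1) of Ttr and of Igf2 had a Pearson r of 0.71 (exact permutation p = 0.0302, adjusted p = 0.181) and a Spearman rho of 0.87 (exact permutation p = 0.00451, adjusted p = 0.0271). Without the 2 pools farthest from the median of Ttr, naive pool 2 and 1 h pool 1, r was 0.89 (exact permutation p = 0.0155). The relation holds differences between conditions as well as between pools. For deviations from the group means r was 0.45 and rho 0.55 (exact permutation p = 0.25 and 0.148), which did not pass. Leaving out naive pool 2 or 6 d pool 2, the pools highest in both genes, gave an r of 0.62 and 0.65 (exact permutation p = 0.120 and 0.104).

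In PL the relation could not be judged, because every pool but naive pool 2 held at most 6 Ttr counts. Over the 9 PL pools r was -0.16 and rho 0.13 (exact permutation p = 0.561 and 0.744), and without naive pool 2 and 6 d pool 2 r was 0.25. Naive PL pool 2, the only PL pool above 1 CPM of Ttr, had 6.71 CPM of Igf2, the middle value of its group. Conversely dHC 1 h pool 1, with a single Ttr read, had the highest Igf2 of the 1 h dHC pools, at 21.3 CPM.

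**Figure D5:**
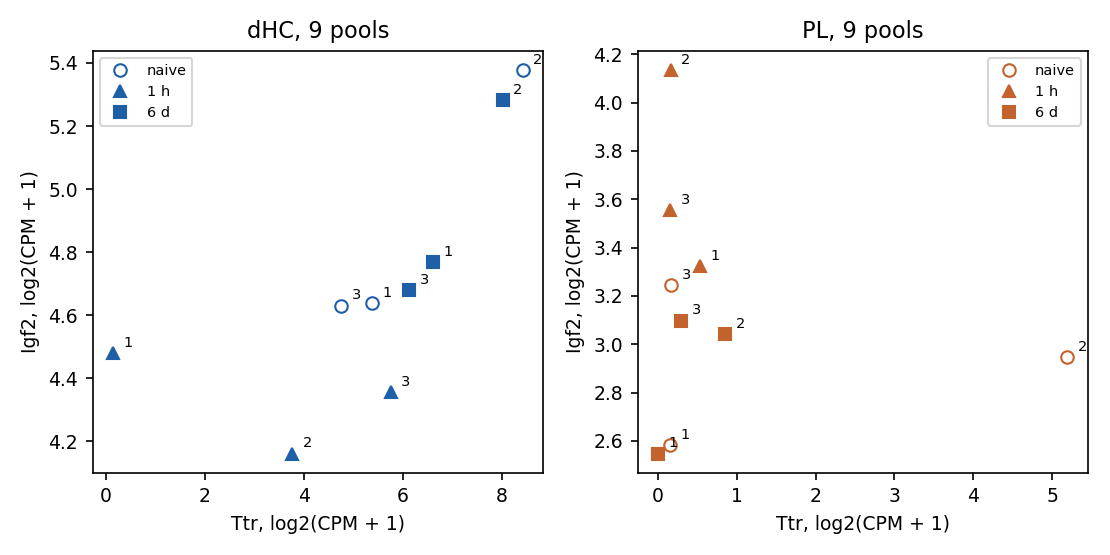
Igf2 against Ttr, both as log2(CPM + 1), over the 9 pools of dHC and the 9 of PL, with symbols for condition and digits for the pool number; the scales of both panels differ. In dHC the 2 pools highest in Ttr, naive pool 2 and 6 d pool 2, are also highest in Igf2; in PL the only pool above 1 CPM of Ttr has the middle Igf2 level of its group.

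Whether pools with the same number in dHC and PL deviated together was not established for either gene. For Ttr it could hardly be, because every PL pool but naive pool 2 held at most 6 counts. For Ttr the deviations from the group means over 9 numbered pairs gave r = 0.51 and rho = 0.37 (exact permutation p = 0.241 and 0.389), and for Igf2 r = -0.09 and rho = -0.30 (exact permutation p = 0.838 and 0.426). Pool 2 was the highest for Ttr in both regions among the naive pools and among the 6 d pools, the latter at 259.4 CPM in dHC and 0.804 CPM, from 6 counts, in PL. At 1 h the numbers differed: the highest was pool 3 in dHC, at 53.3 CPM, and pool 1 in PL, at 0.450 CPM from 4 counts.

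The genes whose deviations from group means most resembled those of each member, by the lower of the 2 regional correlations over 9 pools each, were then looked up among 14298 genes. For Ttr the first was ENSRNOG00000026870, with r of 0.80 in dHC and 0.82 in PL. It had 12.1 CPM in naive dHC pool 2, 10.9 CPM in 6 d dHC pool 2 and between 0.224 and 3.79 CPM in the other dHC pools. In PL it reached no more than 0.330 CPM, in naive pool 2, so that its PL correlation rests on a few reads. The second, ENSRNOG00000001092, had r of 0.77 and 0.87. It had 10.1 and 8.86 CPM in the same 2 dHC pools, and its PL pools lay between 0.115 and 0.770 CPM, highest in naive pool 2. Both genes were picked for their likeness to Ttr, so their high level in naive and 6 d dHC pool 2 is not a separate result. For Igf2 the closest were ENSRNOG00000047605, with r of 0.90 in dHC and 0.85 in PL, and ENSRNOG00000016957, with 0.84 and 0.90. ENSRNOG00000016957 ran from 6.71 to 20.4 CPM in dHC and from 4.67 to 12.9 CPM in PL, and ENSRNOG00000047605 from 73.0 to 91.7 and from 97.5 to 121.3 CPM.

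Counted in 1 region at a time, a correlation of at least 0.9 with Ttr was reached by 26 genes in dHC and 30 in PL, and with Igf2 by 57 and 106, where the median gene had 46 in each region. Ttr thus had fewer such genes than the median gene, and Igf2 more, but neither was extreme. The counts of Ttr exceeded those of 12.7% of genes in dHC and 24.2% in PL, and the counts of Igf2 those of 63.2% and 83.1%. In PL the deviations of Ttr rest on naive pool 2, so its 30 genes describe that pool. The count tables give no gene names, and 0 of their IDs were found in the reference used here, so lists of marker genes for choroid plexus, meninges, ependyma and blood vessels and of the insulin-like growth factor system were not analysed here.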

How the data were processed

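The deposited values are whole read counts per Ensembl gene, not normalized, in a table for each library (32662 genes, then 5 rows that name no gene). A stranded poly(A) kit, 200 ng of RNA, 12 PCR cycles and paired reads of 150 nt were used, per the labels' protocols. The tools in the submitters' processing notes are bedtools 2.17.0, Picard 1.126 and DESeq2, with Rnor_6.0 as assembly; the aligner, the counter and its strand setting were not given in the sources used here. Rows of no gene were kept out of all totals: reads not aligned were 42.0% to 51.8% of a library, aligned to several places 5.56% to 7.18%, outside genes 10.1% to 13.6% and ambiguous 0.599% to 0.706%.

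All 18 pairs of replicate libraries differed by more than sampling noise (chi-square per degree of freedom 1.67 to 4.98). edgeR 4.0.16 in R 4.3.3 (TMM, filterByExpr by group, glmQLFit and glmQLFTest, two-sided, Benjamini-Hochberg over all genes tested) was fitted to the 9 libraries of a region, and to all 18 for comparisons between regions; the rows of Ttr and Igf2 were read out. Standard errors come from the F statistic and intervals are at 95%. Exact permutation tests were two-sided; those of deviations from group means permuted pools within groups, and p-values of the 6 relations were Benjamini-Hochberg adjusted. The scripts were tested on simulated data. DESeq2 1.42.0, limma 3.58.1, other scalings, filters, fits and leaving out each library were the alternatives. Ttr failed the filter in PL, so a permutation test on log2(CPM + 1) replaced the fit planned there. Genes were named if they were members or the 2 genes most like each by correlation of deviations of log2(CPM + 1) from group means, among genes with a mean of at least 1 CPM. The members and lists were chosen with earlier results of these data known. Of 6 gene lists none could be matched to the IDs.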

Additional observations from a re-analysis of the deposited data

How the results depend on the processing

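Of 511 alternative values, 440 were counted as unchanged. With a p-value, this meant the same direction and side of the threshold. Spreads had to move by less than their approximate standard error. For Ttr within PL without 1 library, the difference had to keep its sign and move by less than the pooled standard deviation. The values for the regional difference of Igf2 in naive and 6 d pools all kept direction and side of the threshold. The quasi-dispersion used for Ttr in dHC was 0.831 with no filter on low counts, beside 79.8 with the filter and 251.5 from its own pools. The fit with no filter on low counts gave each gene a spread fitted across genes, with no weight on its own pools. In it these differences passed that otherwise did not: Ttr in dHC at -2.59 (1 h against naive) and 2.68 (6 d against 1 h), in PL at -5.65 (1 h) and -5.22 (6 d against naive), its regional differences of change at 3.06 and 5.31, and Igf2 at -0.59 (dHC 1 h), 0.63 (dHC 6 d against 1 h) and -1.44 (regional difference at 1 h). With only the groups compared, Ttr and Igf2 in dHC at 6 d against 1 h passed at 2.69 and 0.63 and the regional difference of Igf2 at -1.43; Ttr between regions at 1 h was then filtered out. Alternatives fitted to the filtered genes of PL gave no value for Ttr there, and the fit of all 18 libraries gave the values printed with the PL pools.

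The labels number pools alike in every group. In none of 9 pairs of groups did all same-numbered libraries correlate over 0.1 across genes (r from -0.176 to 0.259), and in 2 of the 9 did every library correlate best with its own number, so the numbers were not taken as pairs. With the replicate block Ttr and Igf2 in dHC at 6 d against 1 h passed at 2.52 and 0.60 (adjusted p = 0.0147 and 0.0166), and no other call changed.

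Calls were lost for Ttr between regions with DESeq2 (3.49, naive), limma voom (5.99 naive, 4.31 at 1 h, 9.03 at 6 d) and a robust fit (6.51 at 1 h), and limma voom turned the regional difference at 1 h to -1.68. For Igf2 in PL at 1 h they were lost at 0.84 with all 18 libraries, 0.85 with library totals or a robust fit and 0.82 with limma voom; at 6 d against 1 h at -0.90 with all 18 libraries or a robust fit; and between regions at 1 h at 0.67 with a robust fit. The dHC correlation of Ttr with Igf2 was 0.62 with log2(CPM + 0.1) and 0.45 for deviations from group means, the PL one 0.047 for deviations. The spread of Ttr was 2.69 with log2(CPM + 0.1); levels were already scaled to library totals. Its spread in PL was 0.31 without naive pool 2, chosen after seeing the data.

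Leaving out 1 library gave ranges, for Ttr, of -0.70 to 2.10 (dHC 6 d against naive), 1.90 to 4.48 (dHC 6 d against 1 h), -2.40 to 0.13 and -2.30 to 0.23 (PL 1 h and 6 d against naive), -0.14 to 0.29 (PL 6 d against 1 h), 1.44 to 10.0 (regions, naive), 4.71 to 7.42 (regions, 1 h), -3.50 to 5.08 and -1.24 to 7.33 (regional difference at 1 h and 6 d). For Igf2 they were -0.19 to 0.33 (dHC 6 d against naive), 0.40 to 0.74 (dHC 6 d against 1 h), 0.56 to 1.02 (PL 1 h), -0.23 to 0.12 (PL 6 d against naive), -1.07 to -0.61 (PL 6 d against 1 h), 0.50 to 0.96 (regions, 1 h), -1.61 to -1.14 and -0.14 to 0.39 (regional difference at 1 h and 6 d). The correlation ran from 0.62 to 0.93 in dHC and from -0.29 to 0.043 in PL. In PL at 1 h the share of genes called ran from 0.601% to 3.97% over the filtered fits, and in dHC from 0.0967% to 1.05%.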
